A study of Mus musculus with 50 samples.

Results

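Mt1 and Mt2 were the only metallothionein targets among the 1000 gene targets of the panel, and their 2 columns of the count matrix are described here across cell classes, fields of view, tissue areas and genotypes. Both genes were chosen by their own measured values in these cells, namely their levels by cell class and by genotype, their joint detection and the places where they were locally high, so all such values of Mt1 and Mt2 are given as descriptions with no p-value. The study used CosMx spatial molecular imaging, in which fluorescent probes count single RNA molecules inside segmented cells of a tissue section. Formalin-fixed sections of mouse liver on 1 slide were imaged in 50 fields of view. The knockout group (HIRA KO) was HIRA fl/fl C57BL/6 mice given AAV8-Tbg-Cre, and the control group was wildtype C57BL/6 mice given the same virus, with 3 mice per group. Mice of both groups were injected at 6 months of age and their livers were taken 12 months later, at 18 months. The Tbg promoter drives Cre in hepatocytes, so the deletion is expected in hepatocytes and in cells derived from them, and neither group lacks the virus. HIRA, a chaperone that deposits the histone variant H3.3, has no probe in the panel, and the deletion could not be checked here.

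Metallothioneins are small, cysteine-rich proteins that bind zinc, copper and cadmium and take up reactive oxygen species. Their genes are switched on by metals through the metal-responsive transcription factor MTF1, which binds short metal response elements, and also by glucocorticoids, by interleukin-6 in the acute-phase response and by oxidative stress. In the liver they are made by hepatocytes and other cells and rise strongly in inflammation.

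Mt1 and Mt2 lie next to each other on the plus strand of mouse chromosome 8, and the windows around their start sites were read in GRCm38.p6 with RefSeq annotation because MTF1 is the factor for which both genes are known. The RefSeq start sites, at position 94172618 for Mt2 and 94179089 for Mt1, are 6471 bases apart. The window from 250 bases before to 50 bases after each start was searched on both strands for the 7-base metal response element core, TGCACNC or TGCGCNC, and for the antioxidant response element core TGACNNNGC. Mt2 held 4 metal response element cores and Mt1 held 3. Of 32851 windows of the same length, 25.7% held at least 1 such core and 647 (1.97%) held at least 3. Mt2 also held 1 antioxidant response element core, Mt1 held 0, and 12.4% of windows held at least 1. The matches are shown 5′ to 3′ on the plus strand with 8 bases on each side and the core in capitals, and each is a description of letters in the window and not a bound site. The numbers after the gene names count from the RefSeq start.
Mt2 at -223, plus strand, chr8:94172387-94172409: atcgcctcTGCACCCggcccctc
Mt2 at -128, plus strand, chr8:94172482-94172504: agacccttTGCGCTCagctcctt
Mt2 at -50, minus strand, chr8:94172560-94172582: gggagggcGTGTGCAggctctgt
Mt2 at 5, minus strand, chr8:94172614-94172636: ttcgggtcGTGCGCAggcccagg
Mt2 antioxidant core at -79, plus strand, chr8:94172531-94172555: agggggtgTGACTCAGCgcgggggg
Mt1 at -23, plus strand, chr8:94179058-94179080: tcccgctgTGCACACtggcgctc
Mt1 at 3, plus strand, chr8:94179083-94179105: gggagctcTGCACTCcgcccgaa
Mt1 at 21, plus strand, chr8:94179101-94179123: ccgaaaagTGCGCTCggctctgc
The Mt2 site at 5 and the Mt1 sites at 3 and 21 lie in the first exon of the curated transcripts, and the Mt1 site at -23 lies in an exon of a predicted RefSeq transcript that starts at 94178883. The other Mt2 sites lie in no annotated RefSeq exon. The annotated starts differ between annotations. GENCODE starts were at 94172664 and 94172860 for Mt2 and at 94179082, 94179211 and 94179241 for Mt1. The windows were placed on the curated RefSeq starts alone. The bases before the farther GENCODE starts were searched only as far as these windows reach, so the counts of cores hold for these windows.

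Of 52132 segmented cells, 49665 were kept. No label named a mouse, so the replicate was the tissue area, a run of consecutive field numbers of 1 genotype, with 3 areas per group and 8 or 9 fields per area. P-values over areas therefore measure the spread between these areas. Areas held 6801 to 10171 kept cells with a median of 88 to 147 gene counts per cell. On the slide the control areas stood on one side and the HIRA KO areas on the opposite side, so slide side and genotype cannot be told apart. Gene counts per 1000 square pixels of cell were 6.17 to 8.62 in control and 10.3 to 11.2 in HIRA KO areas, and levels are therefore given as counts per 1000000 gene counts (CPM) of the same cells. Cell classes carry the ending "-like" because they were built here from clusters and marker genes.

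Both genes were read above the background of the assay. Over all kept cells Mt1 had 14068 counts, rank 58 of the 1000 targets, and Mt2 had 7478 counts, rank 194. The 10 negative probes, which match no mouse RNA, had 1107 to 3828 counts, and the median target had 5061.5. The ranks reflect probe binding as well as RNA, so the level of Mt1 is not set against that of Mt2. Mt1 was found in 20.2% of cells and Mt2 in 12.0%, and most positive cells had a single count: 7316 cells had 1 count of Mt1, 1944 had 2 and 756 had 3 or more.

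The highest local levels of both genes lay in a single island of cells in field 13 of HIRA KO area 1. An island cell was one for which Mt1 and Mt2 together, summed over the cell and its 20 nearest neighbours, reached 3 times their level over all cells (3142 CPM). By that rule 862 cells (1.74%) were island cells, 585 of them (67.9%) in field 13. The core, the largest connected group, held 560 of the 1541 cells of that field. It was 1.13% of all kept cells and held 7.0% of all Mt1 counts and 7.60% of all Mt2 counts.

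**Figure D1:**
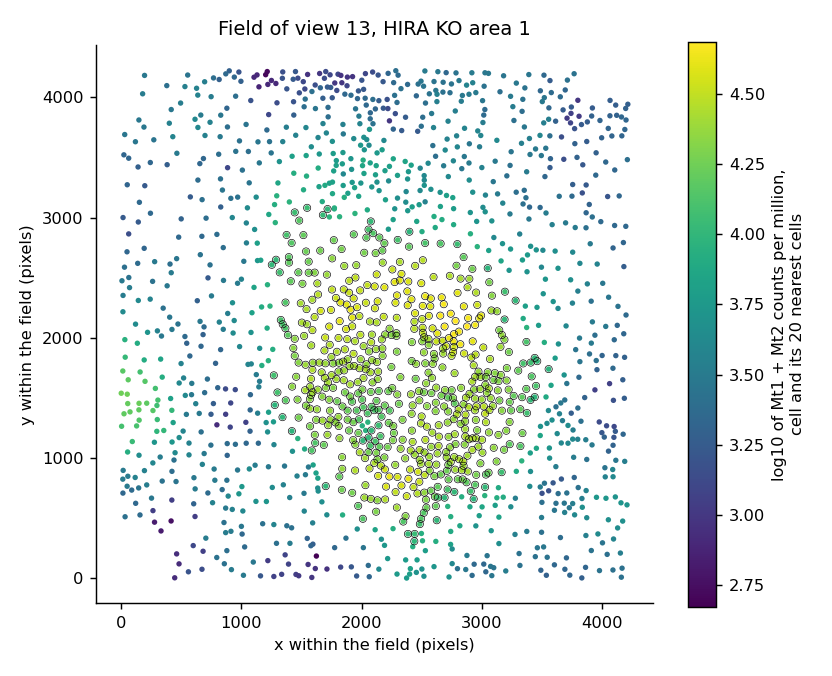
Cells of field 13 of HIRA KO area 1 at their positions in pixels, coloured by the log10 of the summed Mt1 and Mt2 level (CPM) over each cell and its 20 nearest neighbours, with the 560 core cells outlined. The core cells form 1 compact patch, and a separate island of 25 cells lies in the same field.

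Inside the core Mt1 was at 14997 CPM (exact Poisson 95% interval 14075 to 15963, counting error only, 985 counts) and Mt2 at 8648 CPM (7951 to 9389, 568 counts). In the other fields of HIRA KO area 1 the levels were 1881 and 1160 CPM, and in the rest of field 13 itself they were 2330 and 1154 CPM. All cells of the area outside the core together were at 1931 and 1159 CPM. The core was thus 7.76 times that remainder of its area in Mt1 and 7.46 times in Mt2. Of the core cells 64.3% had a count of Mt1, 51.8% a count of Mt2 and 38.8% both. Negative probes were at 312 CPM in the core and 427 CPM in the other fields of the area, so their level was not raised in the core. The cells were selected on these levels, so the folds carry no test.

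The edge of the island was sharp. In rings of 500 pixels from its centre, the last of which held all cells farther out, Mt1 was at 12498, 19223, 4748, 2826, 2494 and 1286 CPM from the inside outwards. Mt2 was at 9774, 10216, 2813, 1157, 1260 and 707 CPM in the same rings. Both genes were thus highest in the second ring, and in the sixth both were below the rest of the area. Transcripts of field 13 that fell outside any segmented cell had Mt1 at 5237 CPM (63 counts) and Mt2 at 3159 CPM (38 counts). These were summed over the whole field and not by ring, so they do not bear on the edge.

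**Figure D2:**
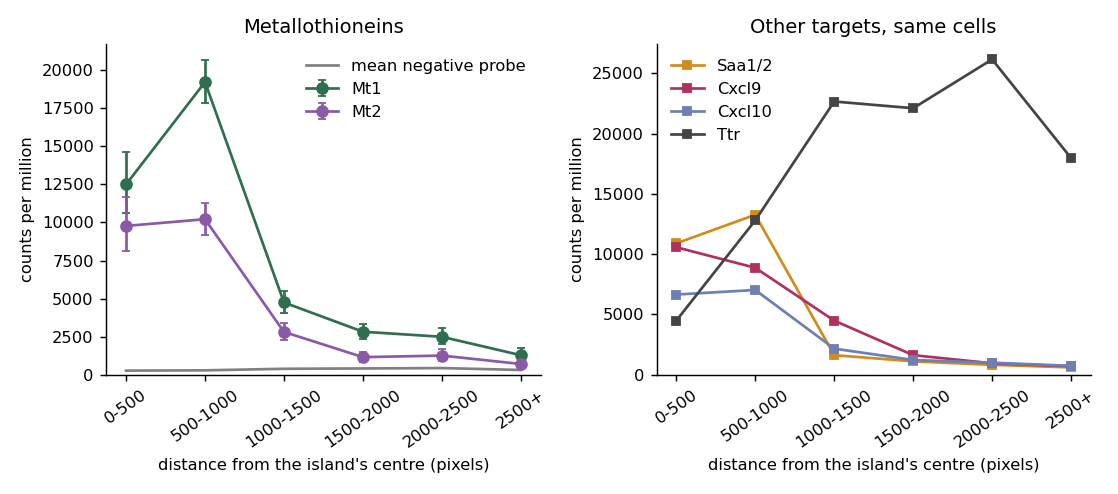
Level (CPM) by distance in pixels from the island's centre in field 13, in 500-pixel rings, for Mt1 and Mt2 at left, with exact Poisson 95% intervals as bars and the mean negative probe as a grey line, and for Saa1/2, Cxcl9, Cxcl10 and Ttr at right. Mt1 fell from 19223 CPM in the second ring to 4748 CPM in the third, while Ttr, the transport protein transthyretin, was lowest (4486 CPM) in the first ring.

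The targets highest in the core besides Mt1 and Mt2 were Saa1/2 and interferon-induced chemokines. Compared with all other cells of the area, the core was 11.5 times higher in Saa1/2 (serum amyloid A, acute-phase proteins), 10.6 times in Cxcl9 and 5.87 times in Cxcl10. Icam1, an adhesion molecule for leukocytes, was 2.45 times as high, the glucose transporter Slc2a1 2.41 times, the monocyte chemokine Ccl2 2.30 times and the keratin Krt18 2.16 times. Mt1 and Mt2 ranked between Cxcl9 and Cxcl10 in this order. At the other end stood Igkc, an immunoglobulin light chain, at 0.358 times, Apoe at 0.50 times and Ttr at 0.539 times. Among the 757 targets with more counts than the highest negative probe, the median ratio was 0.96 and 10 reached 2-fold. These ratios compare 1 patch with its surroundings and have no replicate.

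Genes known to act with or beside metallothioneins were not all high in the core. Of the acute-phase and interleukin-6 list, 9 of 11 panel members lay above the highest negative probe. Their median ratio was 1.28, and 1 of the 9 reached 2-fold. Saa1/2 was that member, Lcn2, an iron-trapping acute-phase protein, was at 1.92 times, the fibrinogen chain Fgg at 1.41 times and Crp at 0.960 times. Il6 itself was at 442 CPM in the core and 498 CPM in the rest of the area, close to the negative probes. The metal and oxidative stress list had a median ratio of 0.788 over 5 members, from 0.543 for the selenium carrier Selenop to 1.40 for the mitochondrial superoxide dismutase Sod2, with Gpx1 at 0.788 and Sod1 at 0.861. The heat shock list had a median of 1.09 over 8 members, with Hsp90ab1 at 1.20 and Hspb1 at 0.777. The glucocorticoid-responsive list had a median of 0.916 over 4 members, the highest being Cdkn1a, a cell cycle inhibitor, at 2.0. All 11 secreted and metabolic hepatocyte genes were lower in the core, with a median of 0.689. Of the 757 targets above the highest negative probe, 327 were higher in the core. The part of cell composition in these ratios was not tested.

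Cells of several classes were high in the core. The hepatocyte-like cells of the core (45 cells) had Mt1 at 6697 and Mt2 at 5358 CPM. They were 45 of 560 core cells, while the whole area, core included, held 2591 hepatocyte-like cells among 10171. The endothelial-like cells (14 cells) had 20391 and 8496 CPM, the stellate/fibroblast-like cells (22 cells) 17063 and 11675 CPM, and the T/NK-like cells (93 cells) 10589 and 6252 CPM. The most frequent core cells, 270 of 560 (48.2%), belonged to an unnamed cluster led by Cxcl9 and Saa1/2, with Mt1 at 19562 and Mt2 at 10675 CPM. The 226 cells of that cluster in the other fields of the area had 2056 and 1008 CPM, so their levels were near those of the area as a whole. Since neighbouring cells overlap in a section, counts assigned to a cell of one class can come from the next, and the share of this was not tested.

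The core also stood apart in its stains and cell shape. The median CD45 stain, a marker of leukocytes, was at an intensity of 5450 against 1006 in the other fields of the area, and the DAPI stain of DNA was at 5289 against 2446. CD3 was at 852 against 555, while PanCK was at 2183 against 2381 and B2M at 3612 against 3675. The median core cell covered 5428 square pixels against 9011, with 96 gene counts against 103. The part of cell density and of leukocytes in the levels of Mt1 and Mt2 was not tested.

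Smaller islands lay in other fields. Field 28 of HIRA KO area 2 held one of 43 cells with Mt1 at 12435 and Mt2 at 5587 CPM. Fields 33 and 30 of the same area held islands of 31 cells (10747 and 3694 CPM) and 27 cells (7630 and 6758 CPM), and field 16 of HIRA KO area 1 one of 31 cells (7299 and 6636 CPM). In control tissue the largest had 12 cells, in field 23 of area 2, with Mt1 at 12342 and Mt2 at 1582 CPM, so that island was one of Mt1. Island cells numbered 2, 12 and 2 in control areas 1 to 3 and 702, 136 and 8 in HIRA KO areas 1 to 3. The groups overlap, since control area 2 had more than HIRA KO area 3, and without field 13 HIRA KO area 1 had 117. Over the areas with at least 20 island cells, which were HIRA KO 1 and 2, the highest median ratios inside over outside were those of Cxcl9 (6.22), Mt2 (6.00), Mt1 (5.98), Saa1/2 (5.72) and Cxcl10 (4.16), followed by Ccl2 (2.30), Icam1 (2.08), the lymphocyte antigen Cd52 (2.05), Krt18 (1.92) and the antigen-presenting H2-Eb1 (1.89). A median of 2 areas is their mean and can hide a difference between them. H2-Eb1 was at 0.807 times in the core of field 13, so it was not raised in the largest island.

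The size of the islands depended on the threshold. At 2 times the overall level 2116 cells in 41 fields passed, 33.1% of them in field 13, and at 4 times 626 cells in 6 fields, 84.2% in field 13. Spatial autocorrelation, in which a positive Moran's I means that neighbouring cells resemble each other, was 0.0970 for Mt1 and 0.0666 for Mt2 over all cells, ranks 17 and 26 of 757 targets. Without field 13 it was 0.0266 and 0.0144, ranks 48 and 87, against a median target near 0.0023.

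Across fields, Mt1 in all cells ran from 1226 CPM in field 45 to 6437 CPM in field 13 with a median of 1872, and Mt2 from 615 CPM in field 43 to 3584 CPM in field 13 with a median of 1035. Leaving field 13 aside, the highest fields were field 23 for Mt1 (3145 CPM) and field 16 for Mt2 (1514 CPM). Mt1 differed more between fields than Mt2. In hepatocyte-like cells, the coefficient of variation between fields beyond counting error was 0.272 for Mt1 (rank 43 of 757 targets) and 0.142 for Mt2 (rank 486), with a median target at 0.161.

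**Figure D3:**
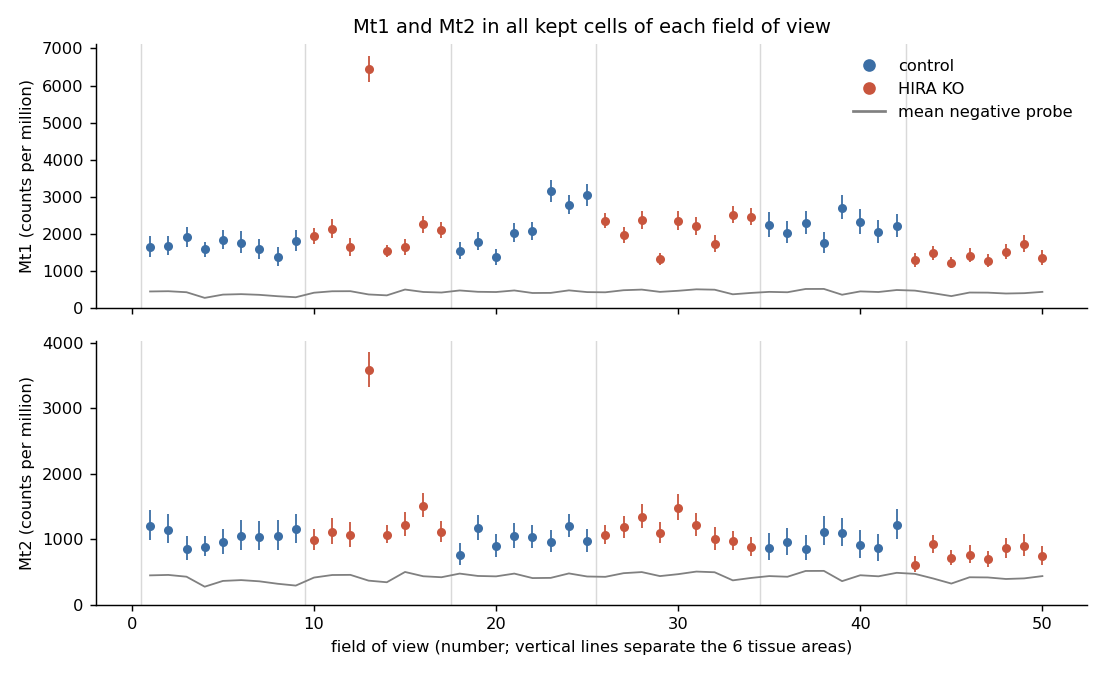
Level in all kept cells (CPM) of Mt1 and Mt2 in each of the 50 fields of view, grouped by area, with exact Poisson 95% intervals as bars and the mean negative probe as a line. Field 13 of HIRA KO area 1 stands far above every other field in both genes, and fields 23, 24 and 25 of control area 2 are the highest control fields in Mt1.

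The high Mt1 fields of control area 2 were high in every compartment. Fields 23, 24 and 25 had Mt1 at 3059, 2573 and 3129 CPM in hepatocyte-like cells, at 3312, 3081 and 2818 CPM in all other cells and at 3268, 3780 and 3553 CPM among transcripts outside cells. Mt2 in the hepatocyte-like cells of these fields was at 904, 1188 and 897 CPM. Fields 23 and 25 were thus near its median over all fields (952 CPM), and field 24 was above it. Over the 50 fields the hepatocyte-like level of Mt1 correlated with that of the other cells (r = 0.65; 0.61 after centring on area means), and for Mt2 r was 0.57 (0.50 centred). Without field 13 r was 0.67 (0.65 centred) for Mt1 and 0.42 (0.29 centred) for Mt2. Levels in the cell classes of a field share a tissue location, a depth and neighbouring cells, and the correlations are descriptions.

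The ratio of Mt2 to Mt1 was therefore not fixed. In hepatocyte-like cells it ran from 0.287 in field 25 of control area 2 to 1.13 in field 29 of HIRA KO area 2. In field 25 Mt1 was at 3129 CPM (95% interval 2796 to 3491) and Mt2 at 897 CPM (723 to 1100). In field 29 Mt1 was at 860 CPM (668 to 1091) and Mt2 at 974 CPM (769 to 1218). These fields thus differed in Mt1 beyond counting error while their Mt2 intervals overlapped. By area the ratio was 0.588, 0.444 and 0.455 in control and 0.583, 0.4933 and 0.628 in HIRA KO areas, with overlapping groups.

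Across the 50 fields the area-centred levels of Mt1 and Mt2 in hepatocyte-like cells correlated at 0.32, or 0.24 without field 13. Counting error alone gave Mt2 a coefficient of variation of 0.147 between fields, against 0.203 observed, while for Mt1 these were 0.107 and 0.293. Counting error of that size weakens any correlation with Mt2, so the ranks below are not a measure of how alike the 2 genes are. For Mt1, Mt2 was the 21st most similar of 756 targets. The closest were the urea cycle enzyme Arg1 (r = 0.53), the glycolytic target Eno1/b (0.51), Ttr (0.48), Krt18 (0.44) and Hsp90ab1 (0.44). For Mt2 they were Thsd4 (0.47), the growth factor receptor Igf1r (0.44), Rgs1 (0.40), Scgb3a1 (0.39) and Ahi1 (0.38), with Mt1 at rank 19. Arg1, Eno1/b and Ttr stayed the first of Mt1 without field 13, and Thsd4 that of Mt2, while Krt18 moved to rank 10 and Rgs1, Ahi1 and Scgb3a1 to ranks 11, 17 and 20.

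By cell class, the mean of both genes was highest in endothelial-like cells among the 8 classes compared. B/plasma-like and myofibroblast-like cells, with as few as 6 and 14 cells in an area, were left out. With field 13 left out, the mean over the 6 areas of Mt1 was 2650 ± 399 CPM (SD, n = 6 areas) in endothelial-like cells. It was 2217 ± 386 in stellate/fibroblast-like, 2196 ± 531 in cholangiocyte-like, 1954 ± 302 in neutrophil-like, 1831 ± 357 in hepatocyte-like, 1830 ± 552 in monocyte/dendritic-like, 1709 ± 428 in T/NK-like and 1586 ± 228 in Kupffer/macrophage-like cells. Endothelial-like cells were above hepatocyte-like cells in 6 of 6 areas, with a median ratio of 1.42. Stellate/fibroblast-like cells were above them in 5 of 6 areas, and the classes from neutrophil-like to Kupffer/macrophage-like followed each other by less than their spread.

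Mt2 had a similar order. It was at 1367 ± 187 CPM (SD, n = 6 areas) in endothelial-like, 1331 ± 364 in cholangiocyte-like and 1189 ± 368 in stellate/fibroblast-like cells. The remaining classes were at 948 ± 218 (T/NK-like), 948 ± 82.4 (hepatocyte-like), 942 ± 232 (monocyte/dendritic-like), 938 ± 190 (neutrophil-like) and 821 ± 185 (Kupffer/macrophage-like). Endothelial-like cells were again above hepatocyte-like cells in 6 of 6 areas, with a median ratio of 1.44, and the first 3 classes did not differ from each other beyond their spread. The order was that of both genotypes pooled. In HIRA KO areas alone cholangiocyte-like cells had the higher mean, with Mt1 at 2604 against 2501 CPM in endothelial-like cells and Mt2 at 1598 against 1423 CPM. For Mt1 this rested on HIRA KO area 1 (2549 against 2039 CPM). In HIRA KO areas 2 and 3 Mt1 was at 2925 against 2928 and 2338 against 2537 CPM. The order of Mt2 held in each HIRA KO area. The background also differed by class. Pooled over areas with field 13 kept, the mean negative probe was at 467 CPM in hepatocyte-like and 499 CPM in neutrophil-like cells. It was at 262 CPM in monocyte/dendritic-like cells and at 322 to 391 CPM in the other classes compared. The class levels were not corrected for this background, so classes close in Mt2 need not be equal above it. CPM is relative to the other RNA of a class, and hepatocyte-like cells carry abundant secreted-protein transcripts, so a class difference in CPM need not be one in molecules per cell.

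**Figure D4:**
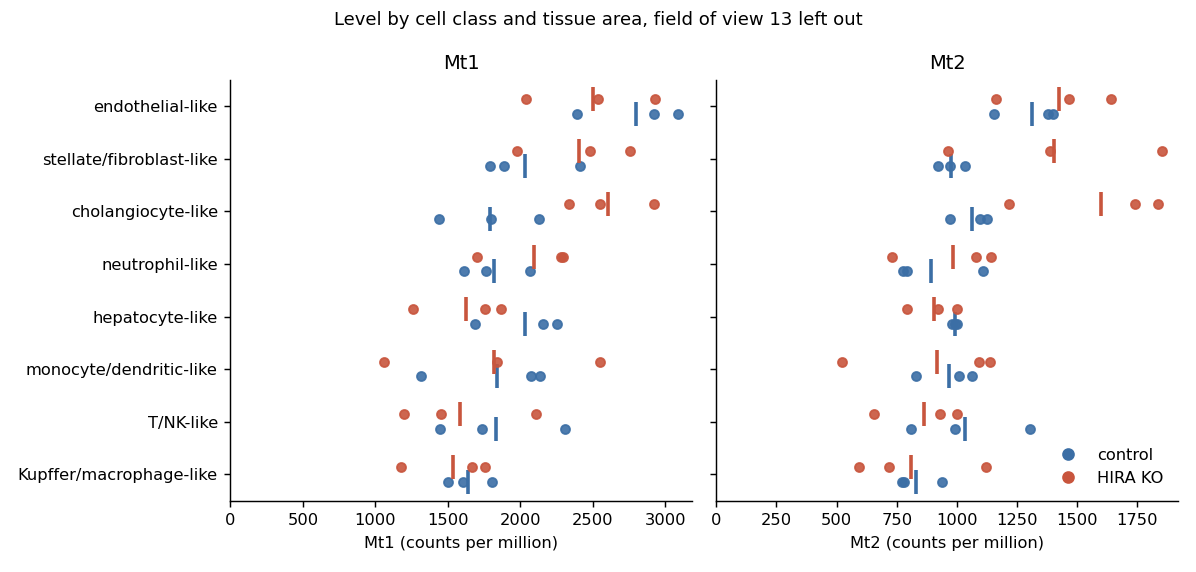
Level (CPM) of Mt1 and Mt2 in each cell class with field 13 left out, one point per area and bars at the group means of control and HIRA KO areas. In the cholangiocyte-like class all HIRA KO points of both genes lie above all control points.

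Turning to genotype, the question was whether the deletion of HIRA in hepatocytes went with another level of Mt1 or Mt2. Over all cells Mt1 was at 1690, 2274 and 2206 CPM in control areas 1 to 3 and at 2595, 2153 and 1392 CPM in HIRA KO areas 1 to 3. Mt2 was at 1023, 1013 and 989 CPM in control and at 1540, 1130 and 773 CPM in HIRA KO areas. In both genes HIRA KO area 1 was the highest and HIRA KO area 3 the lowest of all 6, so the HIRA KO areas enclosed the control areas. In sums over areas, fewer cells of a type and less RNA per cell cannot be told apart. The log2 fold change of HIRA KO over control in edgeR was 0.09 (SE 0.21) for Mt1 and 0.29 (SE 0.17) for Mt2. At an adjusted p of 0.05 the fit called 0.200% of the 998 targets tested and 0 of these 2, from which nothing is read because the genes were chosen on these values. Without field 13 HIRA KO area 1 was at 1881 CPM of Mt1 and 1160 CPM of Mt2, and the fold changes were -0.08 and 0.12. With library size only as the scaling they were -0.0070 and 0.19, so the sign for Mt1 depended on the scaling.

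Hepatocyte-like cells, in which the virus acts, numbered 17437, with 2128 to 3718 per area. Their Mt1 was at 1690, 2253 and 2157 CPM in control areas and at 1865, 1866 and 1260 CPM in HIRA KO areas. HIRA KO area 3 was the lowest, and HIRA KO areas 1 and 2 lay within the control range. The group means were 2033 ± 302 (SD, n = 3 areas) and 1664 ± 350 CPM, a ratio of 0.818. Mt2 was at 994, 1000 and 981 CPM in control and 1087, 921 and 791 CPM in HIRA KO areas, with means of 991 ± 9.53 and 933 ± 148 CPM. The control areas were nearly equal in Mt2, and the HIRA KO areas lay on both sides of them. The log2 fold changes were -0.16 (SE 0.17) for Mt1 and 0.04 (SE 0.11) for Mt2. With marker-score classes they were -0.34 and 0.19, with library size only -0.29 and -0.10, and without the cluster led by Tyms and Ifna, left out after seeing the data, -0.29 and 0.06. The sign for Mt2 thus depended on the scaling. The fit called 0.10% of 998 targets and 0 of these 2, which again is only a description. Negative probes in these cells were at 392 to 508 CPM.

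The cholangiocyte-like cells, named for the cells that line the bile ducts, were the class in which the groups did not overlap in either gene. The origin of these cells, and with it whether they carry the deletion, was not measured here. Among the other classes only Mt1 in myofibroblast-like cells separated the groups the same way, on 2 to 17 counts per area. In cholangiocyte-like cells Mt1 was at 1439, 1799 and 2128 CPM in control and 2976, 2925 and 2338 CPM in HIRA KO areas. Mt2 in these cells was at 1096, 1124 and 970 CPM in control and 1873, 1837 and 1218 CPM in HIRA KO areas. Every HIRA KO area was above every control area in both genes, with ratios of the means of 1.54 for each. Of the 991 targets tested, 5.15% showed the same order in this class. The order describes values the genes were chosen on, so nothing is read from it. The log2 fold changes were 0.67 (SE 0.24) for Mt1 and 0.70 (SE 0.22) for Mt2. Without field 13 HIRA KO area 1 was at 2549 and 1740 CPM, the groups still did not overlap, and the ratios were 1.46 and 1.5.

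The depth behind these values was small in some areas. The Mt1 counts were 88, 32 and 68 in control and 286, 320 and 71 in HIRA KO areas, and the Mt2 counts were 67, 20 and 31 and 180, 201 and 37. Negative probes did not separate the groups (263 to 348 CPM in control, 313 to 343 CPM in HIRA KO areas). Cxcl9 did, at 262, 225 and 250 CPM in control and 520, 384 and 428 CPM in HIRA KO areas. Saa1/2 overlapped between the groups, at 589, 506 and 876 CPM in control and 676, 658 and 494 CPM in HIRA KO areas. Ttr, a hepatocyte transcript, was at 10387, 14613 and 15525 CPM in the control and at 14847, 19978 and 28413 CPM in the HIRA KO cholangiocyte-like cells. The part of neighbouring hepatocytes in the levels of Mt1 and Mt2 was not tested.

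Other genes of the pathways that induce metallothioneins were tested in the same fits. In hepatocyte-like cells, edgeR called 0 of 7 metal and oxidative stress genes, 0 of 11 acute-phase and interleukin-6 genes, 0 of 5 glucocorticoid-responsive genes and 0 of 9 heat shock genes. At an unadjusted p under 0.05 the counts were 2, 2, 0 and 4, and DESeq2 called 2, 2, 0 and 3. Over all 998 targets, 117 were under that unadjusted p and DESeq2 called 29. With slide row as a block edgeR called 2, 2, 0 and 3, and limma-voom on fields, with area as a random block, 2, 1, 0 and 3. Of the 998 targets these fits called 51 and 38. The median log2 fold changes of the lists were 0.22, 0.08, 0.09 and -0.06, against -0.01 over all targets. The members with the lowest p were Selenop (log2 fold change 1.17, adjusted p = 0.131) and Gpx1 (0.89, adjusted p = 0.272) in the metal and oxidative stress list. In the acute-phase list they were Fgg (0.68, adjusted p = 0.246) and, downward, the receptor Il1r1 (-0.38, adjusted p = 0.191). In the heat shock list they were Hsp90ab1 (0.75, adjusted p = 0.0822), Hsp90b1 (0.59, adjusted p = 0.131) and Hspb1 (-0.53, adjusted p = 0.0822), and in the glucocorticoid list Zbtb16 (0.36, adjusted p = 0.463). None of these passed in edgeR without a block. With slide row as a block all of them but Zbtb16 passed.

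Among 11 secreted and metabolic hepatocyte genes, 1 was called. Vtn, the plasma protein vitronectin, rose in HIRA KO hepatocyte-like cells from 1660, 2336 and 2090 CPM to 3828, 3842 and 4000 CPM (log2 fold change 1.08, SE 0.18, edgeR adjusted p = 0.0421), and Gc, the vitamin D-binding protein, was at a log2 fold change of 1.15 (adjusted p = 0.0822). Vtn was called in 0 of the 6 fits that left out one area, with adjusted p from 0.0624 to 0.183 and log2 fold changes from 0.95 to 1.19. With marker-score classes its adjusted p was 0.137. The list's median was 0.41, and 5 members were under an unadjusted p of 0.05, while DESeq2 called 4, edgeR with slide row as a block 5 and limma-voom on fields 4. Over all cells edgeR called none of these lists' members. At an unadjusted p under 0.05 it gave 1 of 7, 2 of 11, 0 of 5, 2 of 9 and 3 of 11, in the order above, and DESeq2 called 0, 0, 0, 1 and 3. The slide row block gave 0, 0, 0, 1 and 2, and limma-voom on fields 1, 0, 0, 2 and 3. Of all 998 targets over all cells, 73 were under the unadjusted p. DESeq2 called 10 of them, the slide row block 17 and limma-voom on fields 11.

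Pooled over all areas, Mt1 and Mt2 were found in the same cell somewhat more often than their depth gave. In control areas 1 and 2 they were not. Of 49665 cells, 1881 had both, 8135 only Mt1, 4086 only Mt2 and 35563 neither. Comparing cells of equal depth, the odds ratio for having both was 0.915, 0.993 and 1.15 in control areas and 2.24, 1.59 and 1.23 in HIRA KO areas. Without field 13 HIRA KO area 1 was at 1.51. All HIRA KO areas were above all control areas, which describes values the genes were chosen on. The share of other pairs of targets with this order is not known here, so nothing is read from it. Gene counts per 1000 square pixels of cell were also higher in HIRA KO areas (10.3 to 11.2) than in control areas (6.17 to 8.62). The part of this density in the odds ratios was not tested.

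In hepatocyte-like cells alone the pattern was weaker. There 741 of 17437 cells had both, where 682 would be given by depth. The odds ratios were 0.979, 0.957 and 1.07 in control and 1.16, 1.57 and 1.11 in HIRA KO areas, and HIRA KO area 2 was the area well above 1. In the cell-by-cell correlation over all cells, Mt2 was the closest of 756 targets to Mt1 (r = 0.14), and in neighbouring cells r was 0.22, followed by Cxcl9 at 0.21 and Saa1/2 at 0.16. Without field 13 Mt2 was again first in the same cell, at 0.057, which is a weak correlation in sparse counts. The highest count in one cell was 20 for Mt1 and 9 for Mt2.

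Distance from cells that stand for the ends of the liver lobule was tested because it was no part of how the genes were chosen. Cells high in Glul, the glutamine synthetase of hepatocytes around the central vein, marked one end, and cholangiocyte-like cells, taken for the portal end, marked the other. Hepatocyte-like cells of each area were cut into 3 equal groups by distance, and the nearest group was compared with the farthest. Glul itself was higher near Glul-high cells, by log2 ratios of 1.11, 0.78 and 0.96 in control and 0.56, 0.29 and 0.70 in HIRA KO areas. The contrast in lobule position was thus not equal between areas. Near Glul-high cells, the log2 ratio of Mt1 was 0.01 ± 0.35 (SD, n = 6 areas, higher near in 5 of 6) and that of Mt2 was 0.03 ± 0.33 (higher in 4 of 6). Neither passed the two-sided exact sign-flip permutation test (adjusted p = 0.969 for each over 4 comparisons, n = 6 areas).

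Near cholangiocyte-like cells, Mt2 was higher in 6 of 6 areas, with a log2 ratio of 0.14 ± 0.09 (SD) and a ratio of 1.11. The exact permutation p was 0.0312, the smallest that 6 areas allow, and 0.125 after adjustment over the 4 comparisons. With 6 areas, 1 comparison of the 4 alone cannot pass 0.05 after adjustment, so no conclusion is drawn from the adjusted value. Mt1 was at 0.12 ± 0.28 and higher in 3 of 6 areas (exact permutation p = 0.375, adjusted p = 0.75). The areas in which Mt1 was higher near were the 3 control areas, at 0.42, 0.20 and 0.43, and the HIRA KO areas were at -0.05, -0.06 and -0.24. That order was seen in the data and was not tested. Glul near over far from these cells was at log2 ratios of -1.51, 0.04 and -2.31 in control and -0.61, -0.48 and -2.33 in HIRA KO areas. In control area 2 the distance thus did not follow Glul. The nearest group reached 207 pixels in HIRA KO area 1 and 660 pixels in control area 2, so the groups are not equal in distance between areas.

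The position of single transcripts within the cell was also independent of how the genes were chosen. In hepatocyte-like cells, 50.4%, 38.8% and 47.7% of Mt1 transcripts lay over the nucleus in control areas and 38.6%, 46.97% and 41.5% in HIRA KO areas. For Mt2 the nuclear share was 66.8%, 59.9% and 55.6% in control and 47.9%, 56.8% and 49.3% in HIRA KO areas. Mt1 was lower than Mt2 in 6 of 6 areas, with means of 44% and 56% and a difference of -12.0 percentage points (two-sided exact sign-flip permutation p = 0.0312, the smallest possible for n = 6 areas). Among 967 targets ranked from the highest share, Mt2 was at rank 204 and Mt1 at rank 712, with a median target of 49.1%. In a thin section, RNA above or below the nucleus is read as nuclear, and negative probes had shares of 26% to 31.1%.

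**Figure D5:**
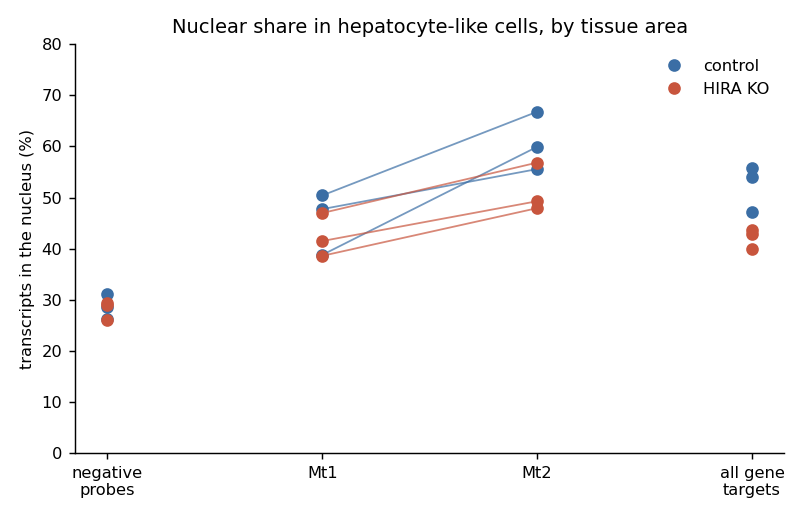
Share (%) of transcripts over the nucleus in hepatocyte-like cells for negative probes, Mt1, Mt2 and all gene targets, one point per area, with control and HIRA KO areas in separate colours and a line joining Mt1 and Mt2 of an area. Mt2 lies above Mt1 in each of the 6 areas, and for all gene targets each HIRA KO area lies below each control area.

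Between genotypes the nuclear share of Mt1 differed by -3.29 percentage points (HIRA KO minus control, exact permutation p = 0.4) and that of Mt2 by -9.40 points (exact permutation p = 0.2). With 3 areas against 3 the smallest p is 0.1, so no difference could pass 0.05. The share over all gene targets was 55.7%, 54.0% and 47.2% in control and 43.7%, 42.8% and 39.8% in HIRA KO areas. Relative to that share of the same area, Mt1 differed by 6.91 points (exact permutation p = 0.2) and Mt2 by 0.79 points (exact permutation p = 0.9).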

How the data were processed

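Counts of 1000 gene targets and 10 negative probes per segmented cell, stain intensities and cell positions, and the position and compartment of single transcripts were used as the authors deposited them; counts were not normalized and intensities are on a linear scale. The members and gene lists were chosen with earlier results of these data known. Per the study's stated filter, cells under 20 counts or over 5 times the geometric mean area were excluded, which left 49665 of 52132 cells (2215 had low counts and 252 were large). Transcripts outside cells were 6.89% of all.

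Clusters were made without Mt1 and Mt2, from Pearson residuals (clipped at 10, 30 components, 20 neighbours, Leiden resolution 1.6), which gave 20 clusters. A cluster was named where at least 3 markers of a class were raised by 0.5 log2 units. Each named cluster also had markers of its class among its 10 leading genes, and 4 clusters stayed unnamed. The cluster led by Tyms and Ifna, which are markers of no class, was named hepatocyte-like on 3 raised markers. It had 2 hepatocyte markers among its leading genes and held 4196 of the 17437 hepatocyte-like cells, so the name is less certain for these cells. Doublets were not called, since cells were segmented from images. Groups came from the labels, and fields were joined to areas by consecutive numbers. All 50 fields lay nearest the centre of their own area.

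Counts were summed per area and tested with edgeR 4.0.16 (TMM scaling, filterByExpr, quasi-likelihood test, Benjamini-Hochberg at 0.05 over all targets), with DESeq2 1.42.0 and limma 3.58.1 as alternatives in R 4.3.3. The fit was tested on simulated counts with 200 changed targets. Named genes were Mt1 and Mt2, up to 2 members per list and direction with the lowest p, the 5 targets most like each member over 50 fields, and the 10 targets highest in islands. Correlations between fields used log2 of CPM plus 100. Glul-high cells were the top 5% of hepatocyte-like cells. Zone and nuclear comparisons used two-sided exact permutation tests. Alternatives were another normalization, filter, tool or class method, slide row as a block, 2% or other distance groups, 10 neighbours and leaving out each area. Those without field 13, without the cluster led by Tyms and Ifna, with negative probes or the panel share subtracted, and with all kept cells were chosen after seeing the data. No protein sequence is shown.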

Additional observations from a re-analysis of the deposited data

Results flagged for a closer look

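Fields of each area were checked for a level of Mt1 or Mt2 far from the others. The genes were chosen partly on these levels, so the check is a description here. Of 24 groups of fields 3 held such a value, and the check flags about 1 in 20 groups by chance. All 3 were field 13 of HIRA KO area 1, which holds the largest island, so they are not independent. Mt1 in all cells was at 6437 CPM there, with the nearest field of that area at 2256 CPM. Mt2 in all cells was at 3584 CPM, with the nearest at 1514 CPM. Mt1 in hepatocyte-like cells was at 2657 CPM, with the nearest at 2056 CPM.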

How the results depend on the processing

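Over 17 results and 95 alternatives that left out no area, 72 values either moved by less than the spread between areas or, for tests and counts, kept their call. Some of these changed sign within that spread: Mt1 in all cells to -0.0070 with library size only and -0.08 without field 13, and Mt2 in hepatocyte-like cells to -0.10 with library size only. Counts per cell area in place of CPM gave log2 fold changes of 0.58 (Mt1) and 0.75 (Mt2) in all cells and 0.22 and 0.43 in hepatocyte-like cells, on a slide whose HIRA KO areas were denser in all counts. The number of targets called in all cells (2) was 10 with DESeq2, 1 with library size only, 11 with limma-voom on fields and 17 with slide row as a block. In hepatocyte-like cells (1) it was 29, 3, 38 and 51 in that order, 0 with marker-score classes and 9 without the cluster led by Tyms and Ifna. The Glul log2 ratio of Mt1 changed sign to -0.031 with 4 equal groups, -0.010 with clusters made with Mt1 and Mt2, -0.037 without field 13 and -0.091 with the top 2%; that of Mt2 changed to -0.028 without field 13, and the cholangiocyte ratio of Mt1 to -0.031 with clusters made with Mt1 and Mt2. The ratio of Mt2 to Mt1 (0.532) was 0.368 after subtracting the mean negative probe. Moran's I averaged over areas, 0.0235 (Mt1) and 0.00942 (Mt2) in hepatocyte-like cells, was 0.0580 and 0.0366 in all kept cells. The cause of these changes was not tested.

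Leaving out each area in turn gave log2 fold changes from -0.08 to 0.28 (Mt1) and 0.06 to 0.47 (Mt2) in all cells, and from -0.28 to -0.01 and -0.04 to 0.13 in hepatocyte-like cells, with 1 to 3 and 0 to 1 targets called. In hepatocyte-like cells the 1 target called, Vtn, was called in 0 of these 6 fits (adjusted p 0.0624 to 0.183). Zone ratios ran from -0.039 to 0.15 (Mt1) and -0.063 to 0.12 (Mt2) near Glul-high cells, and 0.05 to 0.19 and 0.12 to 0.17 near cholangiocyte-like cells. The odds ratio (1.14) ran from 1.06 to 1.18, Mt2 over Mt1 from 0.512 to 0.549, and Moran's I from 0.0147 to 0.0288 (Mt1) and 0.00690 to 0.0122 (Mt2). The nuclear difference between genotypes ran from -6.71 to -0.90 points (Mt1) and -12.1 to -6.39 (Mt2), and Mt1 minus Mt2 from -12.9 to -10.2 points, where 5 areas allow no p under 0.0625. No paired analysis was possible by replicate number, because the groups share none; slide row, which holds 1 area of each group, was used as a block above. Depth limits single cells most: at about 1 count of Mt1 in a positive cell, single cells cannot be ranked.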
